A study of Mus musculus with 6 samples.

Results

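Zinc finger protein genes are described here across 3 clonal lines of EL4, a mouse T lymphoma line. The members are the genes whose deposited name contains "zinc finger", with the IKAROS family left out. They number 35 genes on 43 probe sets, out of 1880 distinct names on the 2451 probe sets of the authors' deposited lists and 45101 probe sets on the array. The first line, C5, is labelled resistant to PMA (a phorbol ester), adherent to plastic and highly metastatic. V7 is labelled PMA-resistant, adherent and metastatic, and WT2 PMA-sensitive, non-adherent and non-metastatic. All cells were kept overnight in serum-free medium and had no other treatment. Each line is 1 clone and gave 2 aliquots handled in parallel, so each phenotype rests on 1 or 2 clones. No label states that the 2 aliquots were grown apart, and a p-value here thus reflects aliquot-to-aliquot spread alone, possibly of technical origin.

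A zinc finger is a short protein fold held together by a zinc ion that cysteine and histidine residues grip. Tandem C2H2 fingers read DNA, and many such proteins carry a BTB, SCAN or KRAB domain that recruits partners or repressors. Other folds that share the name have other work: CCCH fingers bind RNA, and the DHHC domain is the catalytic centre of enzymes that attach palmitate to proteins and so place signalling proteins on membranes. In T cells, zinc finger factors such as the GATA, IKAROS and Gfi1 proteins direct lineage choice and quiescence.

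The values are MAS5 signals, linear intensities that the authors scaled to a common trimmed mean on every array, with array medians from 15.8 to 21.5. Levels of different probe sets are not comparable with each other. All members came from the authors' list of 2420 probe sets for V7 and WT2, and none was on their list of 102 for C5 and V7. The members had thus been selected on the authors' signals of V7 and WT2 (a ratio of at least 2 and their t-test), and what follows on that contrast describes the selected genes and supports nothing. For Gapdh, the 3' control probe set over the 5' one was 0.829 to 1.15 in C5, 0.887 to 0.96 in V7 and 1.51 to 1.77 in WT2, and for beta-actin this ratio was 1.87 to 2.91, 2.04 to 2.50 and 1.83 to 2.04 in the same lines. Differences against WT2 ran alongside the Gapdh ratio, whose part in them was not tested. In RNA from bulk cells, a smaller share of expressing cells and less RNA per cell cannot be told apart.

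Of the 35 genes, 20 were higher and 15 lower in V7 than in WT2, and C5 lay on the same side of WT2 as V7 for all of them. Among the 20 the median of the line means was 143 in C5, 141 in V7 and 56.3 in WT2. Among the 15 it was 51.2 in C5, 57.3 in V7 and 183 in WT2. The share higher in V7, 57.1%, was close to the 57.2% of all 2420 probe sets on that list. C5 and V7 share the WT2 arrays as their comparator, so their positions against WT2 are not separate evidence. The limits of a call, an adjusted p below 0.05 and a 2-fold difference, were met by 24 members for V7 with WT2, 12 higher and 12 lower, beside 12.5% of all 27022 probe sets tested (5.29% higher and 7.23% lower). They were met by 24 members for C5 with WT2, 13 higher and 11 lower, beside 13.0% of all tested (5.58% higher and 7.46% lower). Of the tested probe sets on the authors' list for V7 and WT2, 79.7% were called in the comparison of C5 and WT2 and 84.1% in that of V7 and WT2, so the members' share was below that of the list they came from. The arrays of V7 and WT2 did not overlap for 34 members, beside 62.3% of all tested, and those of C5 and WT2 for 35, beside 59.6%. These counts follow from how the members were chosen. The median absolute log2 difference between V7 and WT2 was 1.33 for the members, 1.60 for all listed probe sets tested and 0.45 for all probe sets tested. All 35 genes and 43 probe sets passed the filter on low signals.

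**Figure D1:**
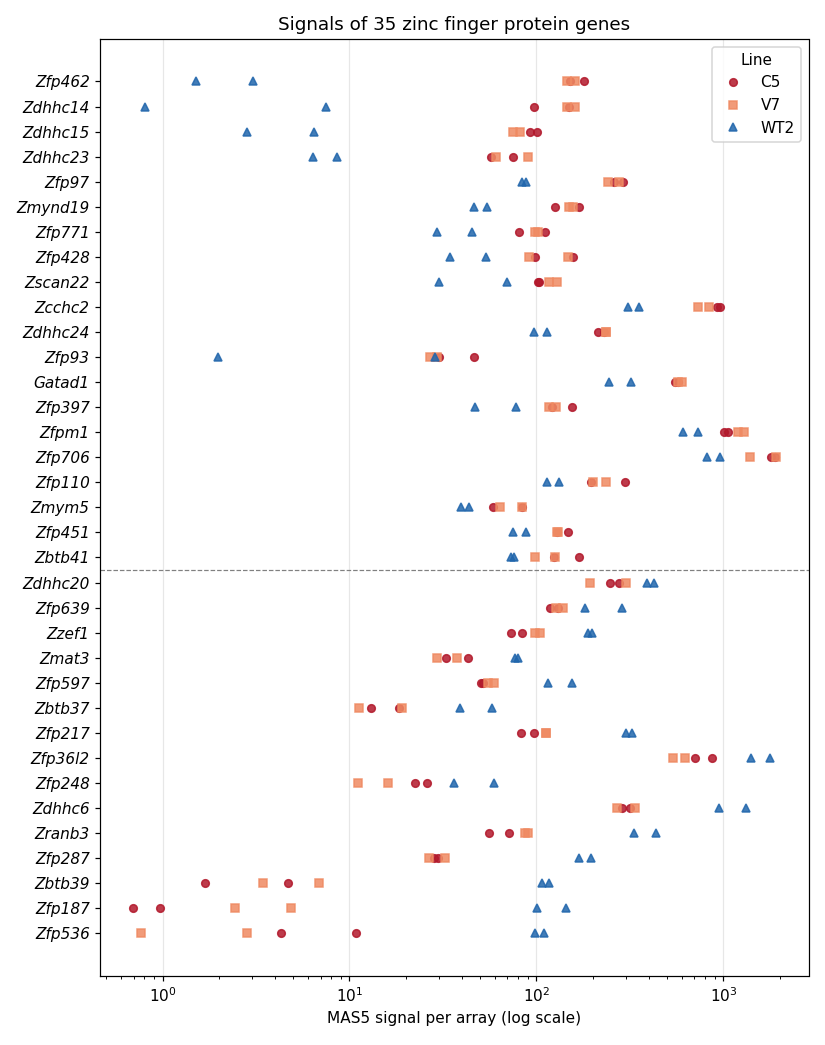
MAS5 signal on a log axis for 35 zinc finger protein genes in C5, V7 and WT2, with 1 point per array (2 per line) and genes ordered by the log2 difference of V7 and WT2. Above the dashed line are the 20 genes higher in V7 and below it the 15 lower genes. In the fit, which adds 5.03 before taking logs, C5 and V7 differ by less than 2-fold in all 35 rows. The signals drawn have no constant added and lie farther apart near the floor. Mean signals in C5 and V7 were 7.60 and 1.79 for Zfp536, and 0.83 and 3.64 for Zfp187.

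Among the 16 genes with a plain zinc finger protein number, most of which encode tandem C2H2 proteins, 9 were higher and 7 lower in V7 than in WT2. Zfp462, a large C2H2 protein linked to chromatin and pluripotency in mouse embryonic stem cells, had signals of 180.5 and 151 in C5, 146 and 161 in V7, and 1.52 and 3.06 in WT2. The log2 difference of V7 and WT2 was 4.45 (SE 0.26) on the brighter probe set, against a mean WT2 signal under the constant of 5.03 that was added before taking logs. The median over its probe sets was 3.24. Every C5 and V7 array was far above both WT2 arrays. A second Zfp462 probe set gave a smaller log2 difference of 2.03, with 132 and 136 in C5, 91.0 and 122 in V7, and 26.4 and 18.2 in WT2. On both probe sets every C5 and V7 array was above both WT2 arrays.

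Zfp97 had 292 and 259 in C5, 277 and 241 in V7, and 83.2 and 87.9 in WT2 (V7 minus WT2, log2 1.54, SE 0.18). Its probe set, like those that stand for Zfp771, Zdhhc14 and Zdhhc6, holds probes that can match other transcripts, so these values may include relatives. Zfp771 had 80.8 and 111 in C5, 97.9 and 103 in V7, and 29.6 and 45.2 in WT2. Zfp428 had 97.7 and 157 in C5, 91.2 and 148 in V7, and 53.7 and 34.4 in WT2. In both, every C5 and V7 array was above both WT2 arrays, while the C5 and V7 arrays overlapped. Zfp706, a small protein that restrains Klf4 in mouse embryonic stem cells, was the brightest member. Signals of Zfp706 were 1895 and 1787 in C5, 1919 and 1381 in V7, and 813 and 958 in WT2, a V7 minus WT2 difference of 0.88 on the log2 scale. Zfp451, whose human counterpart is a SUMO ligase, Zfp110, a partner of the neurotrophin receptor p75, and Zfp397 were higher by 0.65, 0.80 and 0.95 on the log2 scale.

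Zfp93 was the single member whose V7 and WT2 arrays overlapped, and it is singled out after its values were seen. It had 30.2 and 46.2 in C5, 26.9 and 29.2 in V7, and 28.8 and 1.98 in WT2. WT2 aliquot 2 alone made the log2 difference of V7 and WT2 (1.10): it was −0.03 without that array and 2.24 without WT2 aliquot 1. The authors' deposited table gives this probe set a ratio of 2.04.

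On the lower side, Zfp536, a C2H2 repressor of neuronal differentiation in rodents, had 4.32 and 10.9 in C5, 2.82 and 0.764 in V7, and 110.1 and 98.6 in WT2. The log2 difference of V7 and WT2 was −4.02 (SE 0.49). Zfp187, named Zscan26 in RefSeq and a SCAN domain protein, had 0.970 and 0.692 in C5, 4.84 and 2.44 in V7, and 144 and 100.4 in WT2 (V7 minus WT2, −3.87, SE 0.51). Both genes were measured clearly in WT2, whereas their mean V7 signals lay under the constant of 5.03 added before taking logs. Zfp287 had 28.4 and 29.8 in C5, 32.4 and 26.6 in V7, and 169 and 196 in WT2 (−2.44, SE 0.25). Zfp248 had 26.1 and 22.4 in C5, 16.0 and 11.1 in V7, and 36.3 and 59.6 in WT2 (−1.49, SE 0.38). For Zfp248 the C5 arrays lay between those of V7 and WT2. Zfp217, a repressor amplified in human breast cancers, was lower in V7 by a log2 difference of −1.43. Zfp597 and Zfp639 were at −1.16 and −0.75. A second Zfp597 probe set gave −0.67 and was not called, and the median of both, −0.91, is below 2-fold.

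The size of the largest differences depends on the constant added before taking logs. For Zfp462 adding 1 gave a log2 difference of V7 and WT2 of 5.60, and adding the median signal gave 3.08. The same alternatives gave −5.34 and −2.62 for Zfp536, −4.76 and −2.68 for Zfp187, −4.24 and −2.48 for Zbtb39, 5.30 and 2.96 for Zdhhc14 and 3.89 and 2.09 for Zdhhc15. In all, 6 members had a mean signal under the constant in at least 1 line. Zdhhc23 was 1.85 with the median signal added, against 2.66 as analysed.

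The 3 BTB genes encode transcription regulators that pair through the BTB domain and can recruit corepressors. Zbtb39 had 4.69 and 1.69 in C5, 6.90 and 3.46 in V7, and 116 and 107 in WT2, a V7 minus WT2 log2 difference of −3.53 (SE 0.47). Both WT2 arrays exceeded every C5 and V7 array. Zbtb37 had 13.0 and 18.4 in C5, 11.3 and 19.1 in V7, and 39.1 and 57.8 in WT2 (−1.41). Zbtb41 was higher, with 169 and 124 in C5, 98.6 and 126 in V7, and 75.8 and 73.5 in WT2 (0.55, SE 0.22). A second Zbtb41 probe set gave 0.61, and neither probe set met the limits of a call. The sign was thus not shared within this class, although its 2 called genes were both lower.

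The 6 DHHC genes encode palmitoyltransferases. Of these, 4 were higher and 2 lower in V7 than in WT2. Zdhhc14 had 149 and 97.4 in C5, 146 and 159.8 in V7, and 0.806 and 7.48 in WT2, a V7 minus WT2 log2 difference of 4.21 (SE 0.36). A second Zdhhc14 probe set gave 3.14, with 1.26 and 2.47 in WT2. Zdhhc15, studied mainly in neurons, had 100.2 and 91.8 in C5, 82.0 and 74.9 in V7, and 6.50 and 2.83 in WT2 (3.13, SE 0.31). These 2 enzymes were near the floor of the array in WT2 and clearly measured in C5 and V7. Zdhhc23 had 74.7 and 56.9 in C5, 60.8 and 89.9 in V7, and 6.39 and 8.61 in WT2 (2.66, SE 0.32). Zdhhc24 had 231 and 213 in C5, 235 and 235 in V7, and 114 and 96.7 in WT2 (1.12).

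Zdhhc6, an enzyme of the endoplasmic reticulum that palmitoylates calnexin, was the brightest of the class and lower in V7. It had 315 and 286.7 in C5, 338 and 271 in V7, and 948 and 1318 in WT2 (V7 minus WT2, −1.87, SE 0.18). Its other 2 probe sets gave −1.72 and −1.49, so all 3 had the same direction, although 2 of the 3 hold shared probes. Zdhhc20, which palmitoylates the EGF receptor in human cells, had 276 and 248.5 in C5, 302 and 193 in V7, and 426 and 392 in WT2 (−0.75).

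**Figure D2:**
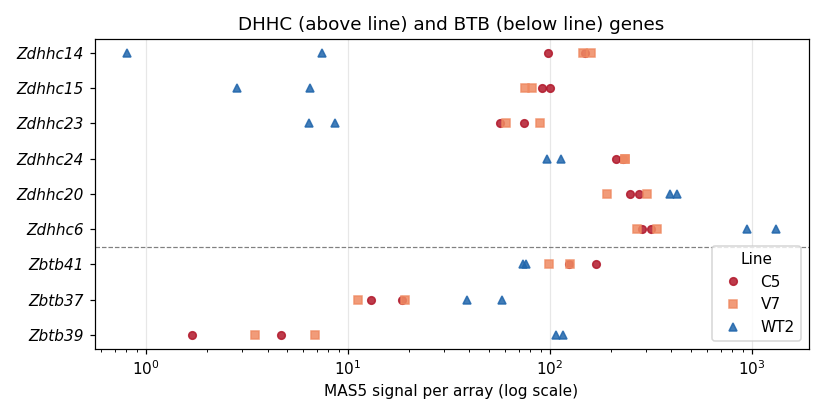
MAS5 signal per array on a log axis for the 6 DHHC genes (above the dashed line) and the 3 BTB genes (below it), with 2 arrays for each of C5, V7 and WT2. Zdhhc14, Zdhhc15 and Zdhhc23 are under 10 in both WT2 arrays, whereas Zdhhc6 is at 948 and above in WT2 and at 338 and below in C5 and V7.

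Members with RNA-related or other folds were split in the same way. Zfp36l2, a CCCH protein that binds AU-rich elements and speeds the decay of messenger RNAs, had 870.3 and 705 in C5, 621 and 535 in V7, and 1403 and 1772 in WT2 (V7 minus WT2, −1.44, SE 0.16). Zmat3, an RNA-binding target of p53, had 42.9 and 32.8 in C5, 37.4 and 29.6 in V7, and 79.5 and 76.3 in WT2 (−1.11). Zranb3, an enzyme that remodels stalled replication forks, had 55.8 and 71.5 in C5, 86.9 and 89.7 in V7, and 435 and 334 in WT2 (−2.05, SE 0.21). In these 3 genes both WT2 arrays were above every C5 and V7 array, and a second Zranb3 probe set gave −1.38. Zzef1, with ZZ-type fingers, had 72.7 and 84.1 in C5, 98.0 and 105 in V7, and 199 and 188 in WT2 (−0.90).

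Zfpm1, also called FOG1, the cofactor through which GATA factors act in blood cells, was higher outside WT2. It had 1011 and 1064 in C5, 1199 and 1287 in V7, and 730.5 and 606 in WT2 (V7 minus WT2, 0.90, SE 0.13), and its dimmer probe set gave 1.23. Zcchc2, a CCHC protein, had 957 and 924 in C5, 728 and 839.6 in V7, and 352 and 309.6 in WT2 (1.23, SE 0.14). Zmynd19, which binds the receptor of melanin-concentrating hormone, had 169 and 125 in C5, 158 and 149.6 in V7, and 54.4 and 46.3 in WT2 (1.52). Each of these genes separated WT2 from the other lines without overlap. Zscan22, a SCAN domain protein, had 102 and 103 in C5, 116 and 129 in V7, and 29.97 and 69.8 in WT2 (1.32). Its WT2 aliquots differed widely, and the difference was 0.77 without WT2 aliquot 1. Gatad1 and Zmym5 were higher in V7 by 1.06 and 0.75.

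The comparison of C5 with V7 sets the clone labelled highly metastatic against the other metastatic clone. The authors' selection did not use this contrast, but the V7 arrays entered both. None of the 35 members met the limits of a call (limma, adjusted p from 0.607 to 0.999), beside 0.0999% of all 27022 probe sets tested, or 27. Of the 2411 tested probe sets on the authors' list for V7 and WT2, 15 (0.622%) met them. At an unadjusted p below 0.05 there was 1 member, against 6.5% of all probe sets tested, and no other tool was run. The log2 difference of C5 and V7 was above 0 in 17 members and below 0 in 18, with a range from −0.55 to 0.86 and no member at 2-fold. Its median absolute size was 0.17 for the members, 0.21 for the tested probe sets on that list and 0.20 for all tested. A missed threshold does not show that C5 and V7 are alike, so the intervals matter. The 95% interval stayed within 2-fold both ways for 29 members (82.9%), beside 57.5% of all probe sets tested. The authors' t-test favoured probe sets with a small spread in V7 and WT2, and that spread also enters these intervals. The shares are thus not like for like, and nothing is read from the gap between them.

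The 6 members whose interval reached past 2-fold included the 3 with the weakest C5 and V7 signals. The intervals rest on a spread shared by all lines, so the WT2 aliquots enter them too. Zfp93 was among the 6, at 0.36 (−0.97 to 1.70), with WT2 arrays of 28.8 and 1.98. Zfp536 had the largest positive difference, 0.86 (95% interval −0.22 to 1.93, limma adjusted p = 0.870), on signals near the floor. Zfp187 had the largest negative one, −0.55 (−1.68 to 0.58, limma adjusted p = 0.943). With 1 added before taking logs these became 1.62 and −1.29, and neither was called. Zfp248 differed by 0.67 (−0.17 to 1.5), and both C5 arrays were above both V7 arrays.

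By the probe set that stands for each gene, Zfp36l2 was the single member with an unadjusted p below 0.05. Its C5 arrays, 870.3 and 705, were above the V7 arrays, 621 and 535, and the log2 difference was 0.44 (95% interval 0.09 to 0.78, limma adjusted p = 0.607). Over all 43 probe sets there were 2, the other being the dimmer one of Zbtb41. It had 160 and 141 in C5 and 104 and 88.6 in V7, a log2 difference of 0.62 (0.15 to 1.08, limma adjusted p = 0.577), whereas the arrays of the brighter Zbtb41 probe set overlapped. Zranb3 differed by −0.45 (−0.91 to 0.01) and Zzef1 by −0.35 (−0.78 to 0.07), with both C5 arrays below both V7 arrays in each. In all, the arrays of C5 and V7 did not overlap in 14 members, C5 being above in 6 and below in 8, beside 38.9% of all probe sets tested. Zfp462 differed between C5 and V7 by 0.10 (−0.47 to 0.67) and Zdhhc6 by −0.01 (−0.41 to 0.39).

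**Figure D3:**
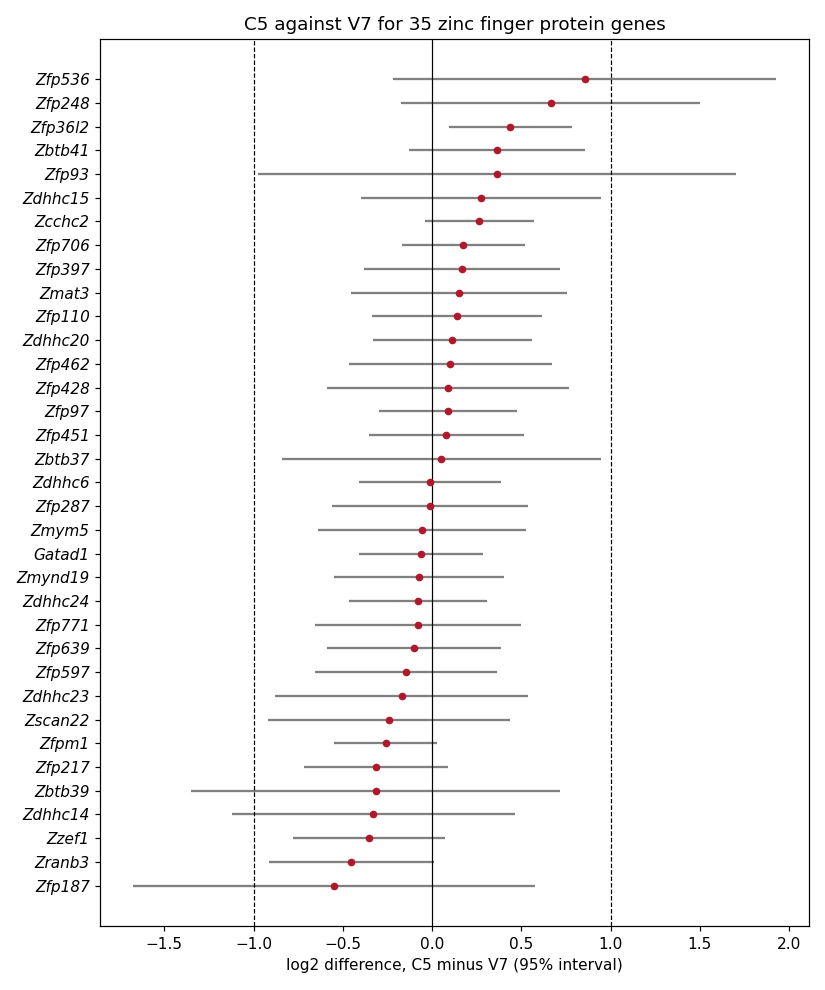
Log2 difference of C5 minus V7 for the 35 genes, with points for the estimates and bars for 95% intervals from the limma fit (2 arrays per line), and dashed lines at 2-fold either way. The intervals of 29 genes lie between the dashed lines, and those of Zfp536 and Zfp187 are among the widest.

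Sequence upstream of the genes was taken from RefSeq's promoter table (GRCm38.p6), which held 27 of the 35 members. Shown are the 250 bases before the start of the 2 genes with the largest positive and the 3 with the largest negative V7 minus WT2 difference that have an entry, since they carry the widest differences. The windows are chrX:104671065-104671314 for Zdhhc15 (minus strand), chr16:43979810-43980059 for Zdhhc23 (minus strand), chr7:37769753-37770002 for Zfp536 (minus strand), chr13:21453728-21453977 for Zfp187 (minus strand) and chr10:127739280-127739529 for Zbtb39 (plus strand). Each is written 5′ to 3′, with capitals for GGGCGG, the box bound by SP and KLF zinc finger factors, on either strand, and for CACGTG, the E-box bound by MYC proteins.
Zdhhc15: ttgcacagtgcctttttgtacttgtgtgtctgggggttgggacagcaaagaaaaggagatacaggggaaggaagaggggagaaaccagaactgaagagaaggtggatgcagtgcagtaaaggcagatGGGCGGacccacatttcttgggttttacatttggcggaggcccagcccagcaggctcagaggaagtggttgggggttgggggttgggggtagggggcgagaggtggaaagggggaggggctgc
Zdhhc23: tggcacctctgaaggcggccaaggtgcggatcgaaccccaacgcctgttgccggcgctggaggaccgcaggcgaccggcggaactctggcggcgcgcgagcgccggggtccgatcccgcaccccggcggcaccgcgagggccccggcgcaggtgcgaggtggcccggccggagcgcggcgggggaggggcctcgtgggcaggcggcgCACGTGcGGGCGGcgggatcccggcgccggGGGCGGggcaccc
Zfp536: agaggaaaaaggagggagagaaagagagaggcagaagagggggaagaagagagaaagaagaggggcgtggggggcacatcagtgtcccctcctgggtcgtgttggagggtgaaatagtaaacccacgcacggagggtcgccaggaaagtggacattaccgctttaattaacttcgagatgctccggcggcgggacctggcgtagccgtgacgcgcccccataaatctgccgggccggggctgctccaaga
Zfp187: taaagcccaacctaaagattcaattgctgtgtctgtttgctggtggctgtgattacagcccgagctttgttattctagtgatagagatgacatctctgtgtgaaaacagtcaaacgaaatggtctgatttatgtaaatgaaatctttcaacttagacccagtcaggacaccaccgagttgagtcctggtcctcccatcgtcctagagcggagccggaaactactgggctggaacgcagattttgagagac
Zbtb39: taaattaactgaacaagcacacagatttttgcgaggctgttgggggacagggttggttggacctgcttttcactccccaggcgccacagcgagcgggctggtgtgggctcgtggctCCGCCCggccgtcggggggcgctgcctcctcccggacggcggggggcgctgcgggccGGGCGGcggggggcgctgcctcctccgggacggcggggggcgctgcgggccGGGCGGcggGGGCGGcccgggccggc
Zbtb39 held 4 GGGCGG boxes, Zdhhc23 held 2 beside 1 CACGTG, Zdhhc15 held 1, and these letters were not in the windows of Zfp536 and Zfp187. Over all listed starts, GGGCGG was found upstream of 15 of 27 members (55.6%), beside 35.4% of the 27025 genes in the table. The median GC content of these windows was 58.8% for the members and 52.4% for all genes. The part of GC content in the share with GGGCGG was not tested. It was found for 9 of 15 members higher in V7 and 6 of 12 lower ones. CACGTG was found for 1 of 27 members (3.70%), beside 6.86% of all genes. TGANTCA, the phorbol ester response element bound by AP-1, was found for 0 of 27, beside 7.82%, and overlaps neither other motif. These are matches of letters, and say nothing of binding.

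By RefSeq's gene order, 6 members lie on chromosome 7 and 5 on chromosome 1. On chromosome 7, 5 of the 6 were higher in V7 than in WT2, and Zfp536 was lower. Of the higher ones, Zfp110 and Zfp93 were not called. Over the authors' list for V7 and WT2, 57.2% of probe sets were higher in V7. Zfp110 and Zscan22, both higher, have 1 protein-coding gene between them there. On chromosome 3, Zmat3 and Zfp639, both lower, have 2 between them, and Zfp639 was not called. Zmym5 and Zdhhc20 on chromosome 14 are separated by 16 genes and had opposite directions, though neither was called. Whether position plays a part was not tested.

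The authors' deposited table and the value table can be set side by side for V7 and WT2, since each was summarised separately. All 35 members had the same direction in both. They had been selected for a ratio of at least 2 in the authors' table, so a shared direction largely follows from that selection. Both tables also describe the V7 and WT2 aliquots of this series, so they are not separate measurements. The absolute log2 difference was larger in the value table for 18 members and smaller for 17. The gap between these absolute differences, value table minus authors' table, ran from −0.92 to 2.06. Its median was 0.00, the middle of gaps of both signs, so it does not give their usual size. The widest gap was that of Zfp536, at −1.95 in the authors' deposited table and −4.02 here. Zfp397 was at 1.87 in the authors' deposited table and 0.95 here. Members just inside the selection limit of 2-fold in the authors' deposited table were Zfp706, with a ratio of 2.00, and Zfpm1, with 2.01. Probe sets just outside it carry no name here. In the same table the adjusted p was above 0.05 for 2 members, Zfp451 (0.0538) and Zfpm1 (0.0542).

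**Figure D4:**
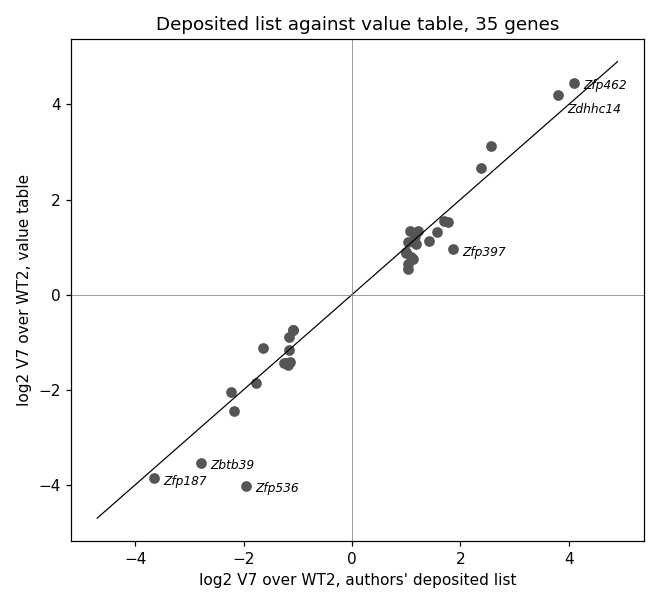
Log2 difference of V7 and WT2 for 35 genes in the authors' deposited list (horizontal) and in the value table (vertical), with 1 point per gene and a line of equal values. All points share their sign on both axes, and Zfp536 lies farthest from the line, at −1.95 and −4.02.

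Genes around the zinc finger proteins were taken from lists and could be named only where the authors had listed them. Of 24 zinc supply genes, 6 had a name, of which 5 were lower and 1 was higher in V7 than in WT2 at the limits of a call (7.23% lower and 5.29% higher over all tested). Being named required a place on the authors' lists, where 84.1% of the tested probe sets listed for V7 and WT2 were called, so this count follows from the selection. Slc39a4, a zinc importer, had 5.14 and 1.73 in C5, 18.7 and 12.0 in V7, and 4345 and 3800.5 in WT2. Slc39a10, another zinc importer, had 4379 and 3984 in C5, 3771 and 3948 in V7, and 48.2 and 46.6 in WT2. The 2 importers thus had opposite patterns across the lines. Slc30a1, the exporter of the plasma membrane, had 40.3 and 7.93 in C5, 16.8 and 10.9 in V7, and 136 and 194 in WT2.

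Of the metallothioneins, small proteins that store zinc, Mt1 and Mt2 were ordered differently from the importers. Mt1 had 9334 and 9249 in C5, 6156 and 6272 in V7, and 13248 and 13638 in WT2. Mt2 had 7805 and 7408 in C5, 5245 and 5343 in V7, and 11009 and 12412 in WT2. In both, C5 lay between V7 and WT2 without overlap. For Mt1 the log2 difference of C5 and V7 was 0.58 (limma adjusted p = 0.025, from 0.00853 to 0.604 over the alternatives), which is below 2-fold, so it was not called. For Mt2 it was 0.52 (limma adjusted p = 0.0823). Mt3, lowest in C5 and highest in WT2 like Slc39a4, had 58.6 and 54.5 in C5, 98.9 and 108 in V7, and 906 and 425 in WT2. No zinc supply gene was called between C5 and V7, beside 0.0999% of all tested. The Mt1 probe set holds shared probes.

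**Figure D5:**
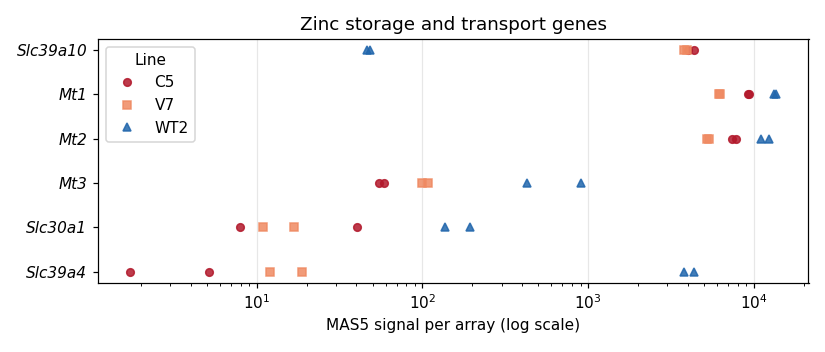
MAS5 signal per array on a log axis for the 6 named zinc storage and transport genes, with 2 arrays for each of C5, V7 and WT2. Slc39a4 is at 3800.5 and above in WT2 alone, Slc39a10 at 3771 and above in C5 and V7, and Mt1 and Mt2 are lowest in V7.

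Of 75 other zinc-binding transcription factors, 8 had a name, with 4 called higher and 4 called lower in V7 than in WT2. Over all tested, 5.29% were called higher and 7.23% lower. Being named again required a place on the authors' lists, so this count follows from the selection. None of the 8 was called between C5 and V7, beside 0.0999% of all tested. Gata3, a T cell factor, had 325 and 299 in C5, 355 and 323 in V7, and 802 and 656 in WT2. Gfi1, a transcriptional repressor, had 206 and 194, 178 and 166, and 514 and 509 in the same order of lines. Both were thus highest in WT2, the opposite of the GATA cofactor Zfpm1. Sall4, a stem cell factor, had 208 and 215 in C5, 167 and 169 in V7, and 18.9 and 24.5 in WT2. Klf3, Hivep2, Sp4, Prdm2 and Ikzf3 had V7 minus WT2 log2 differences of −2.65, −1.23, 1.13, 1.22 and 1.68. Among partners of KRAB proteins, Cbx1 had a V7 minus WT2 log2 difference of 0.63, and of 11 partners of BTB proteins Hdac5 was named, at 0.60. Neither Cbx1 nor Hdac5 reached 2-fold.

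Of 12 T cell markers 4 were named, and all 4 were called lower in V7 than in WT2, beside 7.23% of all tested and with the same selection for a place on the lists. Their summed signal was 943 to 1223 in C5, 1074 to 1165 in V7 and 4005 to 4097 in WT2. Cd2 and Cd247 were under 10 on every C5 and V7 array, whereas Cd3e, which made up most of the sum in C5 and V7, was at 901 and above on every array. Cd5, which is also on the authors' list for C5 and V7, had 52.5 and 39.8 in C5, 108 and 149 in V7, and 677 and 535 in WT2. Its log2 difference of C5 and V7 was −1.37 (limma adjusted p = 0.0517, from 0.0255 to 0.540 over the alternatives). The part of this shift in the values of the zinc finger genes was not tested. Of the markers of other cell types, only the fibroblast gene Pdgfra was named, at 47.2 and 48.2 in C5, 66.0 and 85.8 in V7, and 1.88 and 2.70 in WT2, and no gene was named from the lists for B, erythroid, epithelial or myeloid cells.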

How the data were processed

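RNA of 6 cell aliquots, 2 from each of 3 clonal lines, was hybridised to Affymetrix arrays, 1 array per aliquot. The deposited intensity per probe set is a MAS5 signal per the submitters' processing notes (no version), and all arrays share a 2% trimmed mean of 125.0, so the authors had scaled them. The 2 deposited lists give log2 means, a fold ratio and p-values of a t-test with Benjamini and Hochberg correction, per the file headers. They supplied the gene names and the members. How their signals were summarised is not given in the sources used here.

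Members are the 35 distinct names containing zinc finger, with the IKAROS name (2 probe sets) left out. Symbols were assigned from the names and found for all 35 in RefSeq's table for GRCm38.p6, 1 of them as a synonym. A gene with several probe sets was represented by its brightest. Members, lists and motifs were chosen with earlier results of these data known, list genes were matched to deposited names by hand after those names were seen, and the choice of printed promoters was limited to members with an entry once the table had been seen. The list of KRAB partners is not reported here in full.

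Signals were analysed as log2(signal + 5.03), where 5.03 is the 25th percentile. Testing was limited to the 27022 probe sets whose mean exceeded 11.7, the 40th percentile. limma 3.58.1 (R 4.3.3) fitted 1 mean per line to all 6 arrays with a variance trend, and p-values were two-sided and adjusted by Benjamini-Hochberg over all tested probe sets. A call needed an adjusted p below 0.05 and a 2-fold difference. The fit was also run on simulated arrays with independent noise. Such arrays do not hold the dependence between aliquots of 1 clone, so nothing is drawn from that run. Summaries and figures used Python 3.11.15, pandas 2.3.3, numpy 2.4.6 and matplotlib 3.10.9.

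Genes given with values in every array were the 8 largest positive and 8 largest negative differences between V7 and WT2, the 3 largest each way between C5 and V7, the 3 brightest, and, in each class other than the plain names, the brightest and the most different. That rule gave 23 genes, and the other 12 are also described. Alternatives were another constant, no filter, quantile normalization, no trend, a term for the aliquot number, the median over a gene's probe sets, and each array left out. Aliquots with the same number did not deviate together (correlations from −0.04 to 0.04 across probe sets), so the number was not used as a block.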

Additional observations from a re-analysis of the deposited data

How the results depend on the processing

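No member was called between C5 and V7 under any of the 13 alternatives run, although the count over all probe sets tested moved from 27 to between 4 (no variance trend) and 70 (without either WT2 aliquot), and was 5 without either V7 aliquot, 6 and 7 without C5 aliquots 1 and 2, 15 with the aliquot number as a term, 55 with the median signal added and 19 without the filter. For V7 with WT2, 24 members were called in the analysis as reported and 24 with the aliquot number as a replicate block. Over all 27022 probe sets tested these counts were 3385 and 3267. For C5 with WT2 they were 24 and 24 for the members, and 3524 and 3437 over all tested. With 1 array left out, members both lost and gained calls in each of these comparisons. Quantile normalization moved the median log2 difference of V7 and WT2 over all tested from −0.13 to 0.02 and the split of all calls from 1430 higher and 1955 lower to 1705 and 1527, and called 23 members, 13 higher and 10 lower. Without WT2 aliquot 2, Gatad1, Zbtb37, Zfp248 and Zfp597 missed the limits for V7 with WT2. Without V7 aliquot 2, Zfp248, Zfp428, Zmat3 and Zscan22 did, without V7 aliquot 1 Zbtb37, and without WT2 aliquot 1 Zscan22. Of the 455 alternative values of the 35 genes per comparison, 47 (V7 with WT2) and 43 (C5 with WT2) moved by more than 1 standard error. No such count is given for C5 with V7, but values moved that far there too. With 1 added, Zfp187 went from −0.55 to −1.29 (SE 0.51) and Zfp536 from 0.86 to 1.62 (SE 0.49). A sign changed in 1 value of V7 with WT2, Zfp93, which ranged from −0.035 to 2.24 with 1 array left out, and in 23 values of C5 with V7, of genes never called. Quantile normalization gave Zbtb37 −0.041. The other C5 minus V7 changes of sign came with 1 array left out. The ranges were Zbtb37 −0.23 to 0.34, Zdhhc6 −0.17 to 0.15, Zfp287 −0.13 to 0.11, Zfp428 −0.25 to 0.42, Zmym5 −0.30 to 0.18, Zdhhc20 −0.20 to 0.43. They were Zdhhc23 −0.43 to 0.095, Zfp706 −0.061 to 0.41, Zfp97 −0.011 to 0.19, Zfp110 −0.16 to 0.44, Zfp397 −0.000458 to 0.34, Zfp451 −0.0074 to 0.17 for the next genes, and Zfp462 −0.023 to 0.23, Zfp771 −0.29 to 0.13, Zmat3 −0.020 to 0.32, Zmynd19 −0.28 to 0.14 for the last. The cause was not tested. With an array left out, the lone array of a line is assumed to vary like the others. The number of arrays limits the precision of every value.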
